A study of Homo sapiens with 6 samples.

Results

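A set of 10 genes of the BCL2 family were described in SK-MES-1 cells, an established human lung squamous carcinoma line, after incubation with exosomes of lung fibroblasts from idiopathic pulmonary fibrosis (IPF). The 10 genes, chosen by name out of 15761 in the count table, were the pore formers BAX and BAK1, the antiapoptotic genes BCL2, BCL2L1 and MCL1, and the BH3-only genes BID, BCL2L11, BAD, BBC3 and PMAIP1. All 10 had enough reads to be tested. RNA-seq was done on 3 libraries of cells kept for 72 h with the exosomes at 20 µg/ml and on 3 control libraries of cells kept without exosomes, and the labels give the genotype of all as WT. The comparison addresses how such exosomes change tumour cell transcripts. It covers 1 cell line, its control had no vesicles from other cells, and no source used here gives the number of fibroblast donors. The labels do not say that the libraries of a group came from separate cultures, so the p-values measure the spread between these libraries, which may be technical.

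The BCL2 family decides whether the outer mitochondrial membrane is opened during apoptosis. BAX and BAK1 oligomerise in that membrane and release cytochrome c, BCL2, BCL-xL (from BCL2L1) and MCL1 hold them in check, and BH3-only proteins either neutralise these guardians or activate BAX and BAK1 directly. Much of this control acts on proteins, through binding, cleavage, phosphorylation and rapid turnover, and only transcripts were measured here.

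No link between upstream sequence and transcript change was tested. The upstream sequences of both pore formers, whose proteins form the same kind of pore, are shown as a description. They are the bases just before the RefSeq transcript start on GRCh38.p14, 5′ to 3′ on the strand of the gene, BAX at chr19:48954625-48954874 (plus strand) and BAK1 at chr6:33580294-33580526 (minus strand). For BAK1, the bases inside the gene as GENCODE annotates it, which are UTR there, were left out. For BAX, the last 60 bases also lie inside the gene as GENCODE annotates it, in the first exon of a transcript with a retained intron and no UTR, and they are shown. Capitals mark CACGTG, the E-box bound by MYC, USF and MiT/TFE family proteins, which reads the same on both strands.
BAX: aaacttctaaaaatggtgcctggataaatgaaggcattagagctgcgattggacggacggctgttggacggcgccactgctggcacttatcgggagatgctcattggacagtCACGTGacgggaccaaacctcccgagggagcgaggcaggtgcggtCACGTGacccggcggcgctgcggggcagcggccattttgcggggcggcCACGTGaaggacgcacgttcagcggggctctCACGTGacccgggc
BAK1: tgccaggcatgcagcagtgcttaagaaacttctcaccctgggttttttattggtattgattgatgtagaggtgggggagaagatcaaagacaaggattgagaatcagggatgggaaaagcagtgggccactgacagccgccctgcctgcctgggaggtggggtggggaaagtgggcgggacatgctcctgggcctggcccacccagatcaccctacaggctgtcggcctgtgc
The 250 bases before the RefSeq start of BAX held 4 CACGTG copies, whose first bases lay at -138, -93, -45 and -14, counted back from that start. The first 2 of these lie before the GENCODE start of the gene and the other 2 lie inside it. At least 4 copies occurred in 5 of 35116 RefSeq windows of the same length (0.0142%), and at least 1 copy in 6.34%. The limit of 4 is the number found in BAX itself, so the first share is a description and not a test. The BAK1 window held no CACGTG. RefSeq windows were matched for 9 of the 10 genes, and MCL1 was the exception. CACGTG was present in a window of 3 of the 9, which were BAX, BID and BBC3. The 9 genes had 15 windows in all, so this count by gene does not compare directly with the 6.34% of windows. The windows of all 9 were also searched on both strands for GGGCGG, which BAX held once and BAK1 held 2 times, and for CCAAT, which BAX held 2 times and BAK1 once. GGGCGG occurred in 42.6% of all windows and CCAAT in 32%, and a match is a description of letters and not of binding.

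Library totals were 11346639 to 13334508 counts. The CPM values below are counts scaled to these totals, and the log2 fold changes are exosome over control from edgeR's quasi-likelihood test across 12449 genes with TMM scaling, with the standard error (SE) and p-values adjusted by the Benjamini-Hochberg method. In all, 51.7% of tested genes passed an adjusted p of 0.05, with 25.6% higher and 26.1% lower with exosomes. Fold changes followed GC content across genes (Spearman rho 0.617), with medians of -0.39 to 0.49 over 10 bins of GC, so a second value is given for each gene from a fit with the GC and length trend of each library removed, called corrected below. In that fit 35.4% of genes passed, 18.2% higher and 17.3% lower. Library 3 of each group stood apart from the other two, with a chi-square per gene of 7.41 to 16.2 against them and of 2.31 to 3.18 between libraries 1 and 2 of a group. Mitochondrial transcripts took 5.98% to 7.0% of counts with exosomes and 6.45% to 9.18% in control, and their part in the results was not tested.

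Markers of the labelled cell type were mixed. The simple epithelial keratins KRT8, KRT18 and KRT19 were abundant, with KRT8 at 1944 CPM with exosomes and 2340.1 CPM in control, but the squamous markers KRT5, KRT6A and KRT14 had 0 to 6 reads in every library and TP63 averaged 2.28 CPM with exosomes and 1.51 CPM in control. The epithelial cadherin gene CDH1 fell to 20.7 CPM with exosomes, against 51.5 CPM in control (log2 fold change -1.39, corrected -1.34), and the basal keratin gene KRT17 fell to 1.11 CPM with exosomes, against 3.47 CPM in control (log2 fold change -1.71, corrected -2.10). Of 9 fibroblast markers 7 were measured. Their summed level was 48.9 to 54.2 CPM with exosomes and 104 to 114 CPM in control, mostly from COL1A1 and COL1A2, while COL3A1, PDGFRA, FAP and THY1 had 0 to 5 reads in every library. The part of these markers in the results below was not tested.

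BAX and BCL2 changed in both fits, in opposite directions. The transcript of the pore former BAX rose 2.21-fold with exosomes, and that of BCL2, the founding antiapoptotic member, fell and was 1.74-fold higher in control. The BH3-only genes BAD and BID also rose, by smaller amounts and in the uncorrected fit alone. In all, 3 of the 10 genes rose, 1 fell and 6 did not pass the test. That is 40% called, against the 51.7% of all tested genes named above. The median log2 fold change of the 10 genes was 0.18, against -0.0042 for all tested genes. In the corrected fit 3 rose (BAX, PMAIP1 and BCL2L11) and 2 fell (BCL2 and BCL2L1), which is 50% called against 35.4% of all genes, and the median was -0.08. The share called thus lay below that of all genes in one fit and above it in the other. With 10 genes, neither difference was tested. Library 3 of both groups was also left out, an omission chosen after seeing the data. The log2 fold changes of the 4 called genes were then 1.24 for BAX, -0.96 for BCL2, 0.38 for BID and 0.32 for BAD. All 4 passed (edgeR, highest adjusted p = 0.0368). With 1 library left out at a time, 1 to 4 genes of the family were called higher and 1 lower. BID and BAD did not keep their calls in all of these fits, as given below. These are bulk libraries, in which a change in every cell and a change in a share of the cells cannot be told apart.

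**Figure D1:**
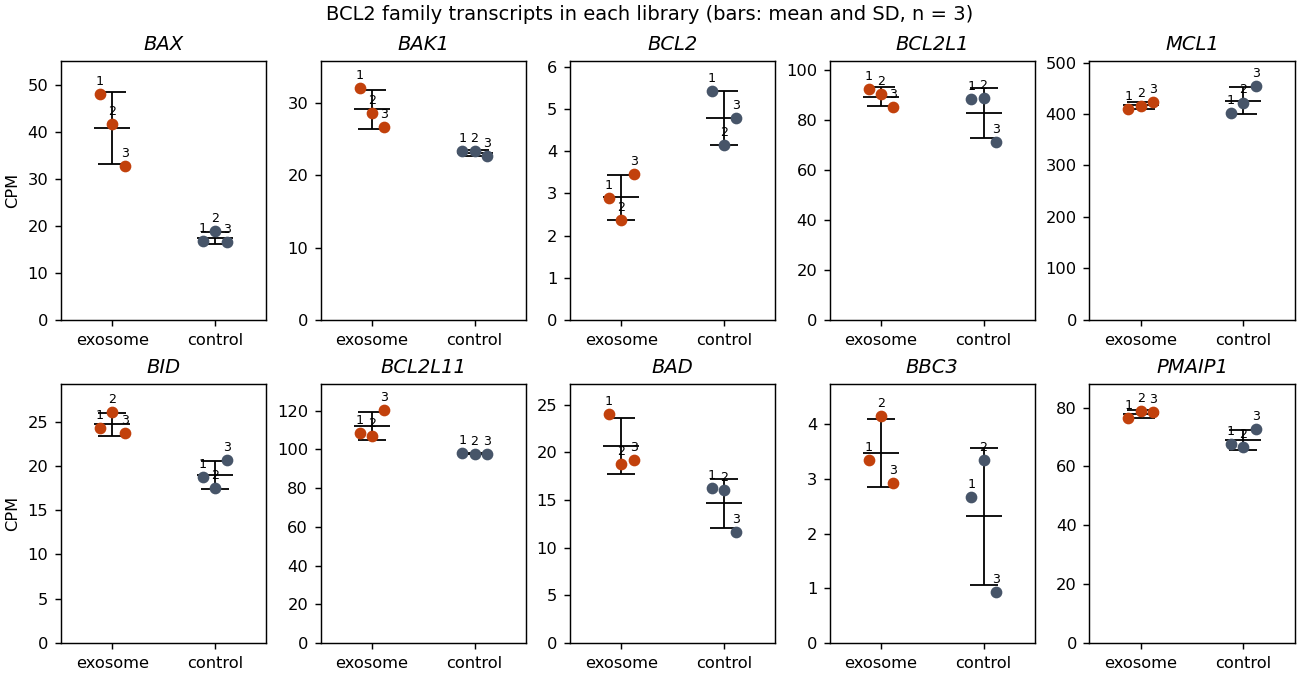
CPM of the 10 genes in each library, exosome left and control right. Points are libraries with their replicate number, and bars give the mean and SD (n = 3). BAX lies at 32.7 to 48.0 CPM with exosomes and at 16.6 to 18.9 CPM in control, and BCL2 is the gene whose exosome libraries all lie below control.

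BAX, the effector that moves from the cytosol to mitochondria when activated, had 48.0, 41.6 and 32.7 CPM in the exosome libraries and 16.7, 18.9 and 16.6 CPM in the control libraries. The groups did not overlap, and the lowest exosome library lay well above the highest control library. The mean was 40.8 ± 7.68 CPM with exosomes and 17.4 ± 1.33 CPM in control (SD, n = 3 each). The log2 fold change was 1.14 ± 0.13 (SE, 95% confidence interval 0.88 to 1.40, edgeR adjusted p = 3.88e-07), and 2.71% of tested genes had one at least as large in either direction. The authors' deposited table gives a log2 fold change of 1.15 with an adjusted p of 3.27e-13. Among the 1245 genes of like GC content (58.9% for BAX), the median log2 fold change was 0.36, and 49 genes lay at or above BAX, itself included. Corrected, the log2 fold change was 0.67, which is 1.59-fold (edgeR adjusted p = 3.20e-05). The exosome libraries stood in the same order for BAX as for the slope of expression on GC content, which was 0.24, 0.17 and 0.06 log2 units per 10% of GC with exosomes and -0.12, -0.14 and -0.21 in control. The control libraries did not follow that order.

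BAK1, the effector that resides in the outer membrane, had 32.0, 28.5 and 26.7 CPM in the exosome libraries and 23.3, 23.4 and 22.6 CPM in the control libraries. All exosome libraries lay above all control libraries, but the distance was small. The mean was 29.1 ± 2.72 CPM with exosomes and 23.1 ± 0.437 CPM in control, and the log2 fold change was 0.25 ± 0.11, which missed the threshold (edgeR adjusted p = 0.0574). It passed without exosome library 3 (edgeR adjusted p = 0.0328) and was below 0 when corrected, at -0.15 (edgeR adjusted p = 0.222).

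The direct contrast of the pore formers does not depend on library scaling. The ratio of BAX to BAK1 in FPKM, the authors' length-normalised level, was 2.35, 2.28 and 1.92 with exosomes and 1.12, 1.27 and 1.15 in control. The groups did not overlap, and the ratio was 1.84-fold higher with exosomes. BAX and BAK1 transcripts have nearly equal GC content (58.9% and 58.8%), and the corrected ratio was 1.76-fold higher. In a two-sided exact permutation test p was 0.1, the smallest that 3 against 3 libraries can give, and this pair was chosen after its values had been seen. BAX made up 68.5% ± 2.38 of the summed FPKM of both genes with exosomes and 54.1% ± 1.63 in control (SD, n = 3 each).

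Among the antiapoptotic genes, BCL2 was the least abundant and the one that fell. BCL2 had 2.89, 2.38 and 3.45 CPM in the exosome libraries, from 38, 31 and 46 reads, and 5.42, 4.14 and 4.80 CPM in the control libraries, from 69, 47 and 62 reads. Every exosome library lay below every control library. The mean was 2.90 ± 0.536 CPM with exosomes and 4.79 ± 0.641 CPM in control, and the log2 fold change was -0.80 ± 0.23 (edgeR adjusted p = 0.00652). The authors' deposited table gives -0.80 with an adjusted p of 0.02. Corrected, the log2 fold change was -0.58 (edgeR adjusted p = 0.0491), and this corrected call ended without exosome library 1, exosome library 2, control library 1 or control library 3 (edgeR adjusted p = 0.108, 0.199, 0.179 and 0.0542). At these read numbers counting error limits the precision of BCL2 more than that of any other gene of the family except BBC3.

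BCL2L1, which encodes BCL-xL and the shorter proapoptotic splice form BCL-xS, had 92.3, 90.3 and 85.0 CPM in the exosome libraries and 88.4, 88.5 and 71.0 CPM in the control libraries. The groups overlapped, and control library 3 was the lowest of all. The log2 fold change was 0.03 ± 0.09 (95% confidence interval -0.16 to 0.22, edgeR adjusted p = 0.824), and without control library 3 it was -0.06. In the corrected fit BCL2L1 fell by 0.30 on the log2 scale (edgeR adjusted p = 0.00246). The 1245 genes in its GC bin had a median of 0.30 before correction. Gene counts do not separate its splice forms.

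MCL1, whose short-lived protein is removed within hours when its synthesis stops, was the most abundant of the 10. It had 411, 416 and 423 CPM in the exosome libraries and 401, 422 and 454 CPM in the control libraries. The exosome values all lay inside the control range in CPM, which carry no TMM factors, unlike the fitted fold change. The log2 fold change was -0.11 ± 0.07 (95% confidence interval -0.27 to 0.04, edgeR adjusted p = 0.212) and -0.01 when corrected (edgeR adjusted p = 0.919). The interval leaves room for a decrease of 0.27 on the log2 scale but not for one of the size seen for BCL2.

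BID and BCL2L11 are BH3-only genes whose proteins can bind and activate BAX and BAK1 directly. BID, whose protein is cut by caspase-8 and links death receptors to mitochondria, had 24.3, 26.2 and 23.7 CPM in the exosome libraries and 18.7, 17.5 and 20.7 CPM in the control libraries. The groups did not overlap. BID rose by a log2 fold change of 0.30 ± 0.11 (edgeR adjusted p = 0.0322), which was 0.17 when corrected (edgeR adjusted p = 0.206). The call ended without exosome library 1 or 2 or control library 1 or 2 (edgeR adjusted p = 0.0579, 0.130, 0.0671 and 0.126) and with DESeq2 (adjusted p = 0.0555). The authors' deposited table gives nearly the DESeq2 value, an adjusted p of 0.0558.

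BCL2L11 encodes BIM, which binds all the antiapoptotic members. It had 109, 107 and 120 CPM in the exosome libraries and 98.3, 97.6 and 97.7 CPM in the control libraries. The exosome libraries all lay above control, with library 3 the highest. The log2 fold change was 0.11 ± 0.08 (edgeR adjusted p = 0.245), and in the corrected fit BCL2L11 rose by 0.27 (edgeR adjusted p = 0.00228).

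The proteins of the other BH3-only genes also bind antiapoptotic members. BAD, which binds BCL2 and BCL-xL and is held by 14-3-3 proteins when phosphorylated, had 24.1, 18.8 and 19.2 CPM in the exosome libraries and 16.3, 16.0 and 11.7 CPM in the control libraries. The groups did not overlap. BAD rose by a log2 fold change of 0.42 ± 0.14 (edgeR adjusted p = 0.0197), but the call ended without exosome library 1 or control library 3 (edgeR adjusted p = 0.138 and 0.0924). Corrected, the value was -0.22 (edgeR adjusted p = 0.150), and the 1245 genes of its GC bin had a median of 0.49. BAD overlaps GPR137 on the other strand at chr11:64269830-64284704 (GRCh38, minus strand for BAD), and no source used here says whether the authors counted reads by strand, so their reads may not be fully separated. GPR137 averaged 27.1 CPM with exosomes and 17.7 CPM in control and rose by a log2 fold change of 0.53 (edgeR adjusted p = 8.64e-04).

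BBC3 encodes PUMA, which binds all the antiapoptotic members. It had 3.34, 4.14 and 2.92 CPM in the exosome libraries and 2.67, 3.35 and 0.928 CPM in the control libraries, from 44, 54 and 39 reads with exosomes and 34, 38 and 12 reads in control. The groups overlapped, and control library 3 was by far the lowest. The log2 fold change was 0.51 ± 0.33 (95% confidence interval -0.18 to 1.20, edgeR adjusted p = 0.205) and -0.15 when corrected (edgeR adjusted p = 0.735). It was 0.13 without control library 3 and 0.87 without control library 2, where it passed (edgeR adjusted p = 0.0475).

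PMAIP1 encodes NOXA, which binds MCL1 and promotes its degradation. It had 76.3, 78.9 and 78.4 CPM in the exosome libraries and 67.6, 66.5 and 72.7 CPM in the control libraries. The exosome libraries all lay above control in CPM, which carry no TMM factors. The log2 fold change was 0.09 ± 0.08 (edgeR adjusted p = 0.351), and in the corrected fit PMAIP1 rose by 0.23 (edgeR adjusted p = 0.0130). That corrected call ended without exosome library 1 or control library 2 (edgeR adjusted p = 0.0518 and 0.0655). With a GC content of 37.2%, PMAIP1 lies in the GC bin with the lowest median fold change, -0.39, and 75 of its 1245 genes lay at or above it.

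Across the family, 7 of the 10 genes had CPM groups that did not overlap, 6 above control (BAX, BAK1, BID, BAD, PMAIP1 and BCL2L11) and 1 below (BCL2). Of all tested genes 59.5% had groups that did not overlap, 35% with exosomes above and 24.5% below. CPM carry no TMM factors, and scaling by library totals moved the median log2 fold change of all genes by 0.08 to the exosome side. Whether genes with small differences, such as PMAIP1 (log2 fold change 0.09), stay apart with TMM scaling was not tested.

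**Figure D2:**
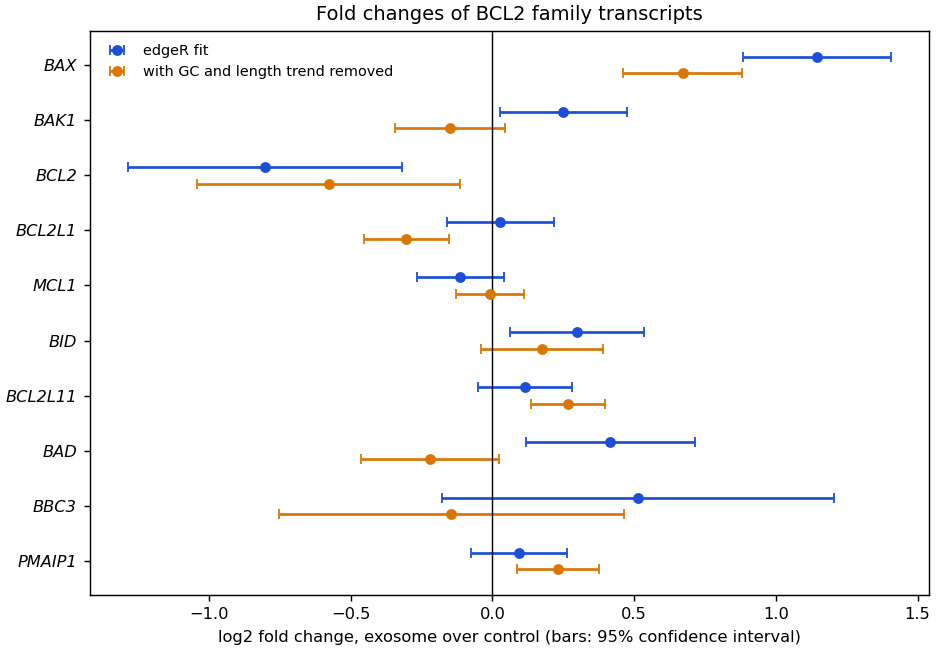
Log2 fold change of each gene, exosome over control, from the edgeR fit (blue) and from the fit with the GC and length trend removed (orange). Points are estimates and bars are 95% confidence intervals. BAX (1.14 and 0.67) and BCL2 (-0.80 and -0.58) keep their direction in both, and the estimates of BAK1, BCL2L1, BAD and BBC3 are above 0 in the first and below 0 in the second.

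**Figure D3:**
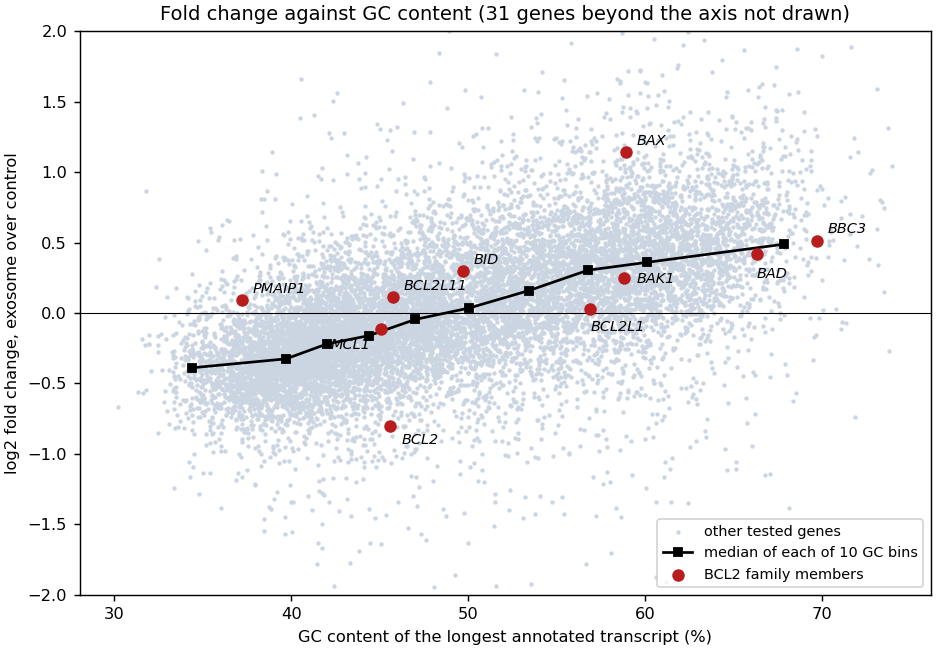
Log2 fold change, exosome over control, against GC content of the longest annotated transcript. Grey points are the other tested genes, 31 of which lie beyond the axis, squares are medians of 10 GC bins and red points are the 10 genes. BAX lies above and BCL2 below the bin medians, while BAD, BAK1 and BBC3 lie near them.

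Levels per length were compared between genes in the FPKM scale of the deposited table. MCL1 had the highest level, 102 ± 1.55 FPKM with exosomes and 104 ± 6.54 FPKM in control (SD, n = 3 each), and made up 39.7% of the summed FPKM of the 10 genes with exosomes and 46.5% in control. PMAIP1 followed with 37.1 FPKM with exosomes and 32.9 FPKM in control, and BCL2L1 with 31.2 FPKM with exosomes and 28.9 FPKM in control. BAX ranked 4 with exosomes at 28.9 ± 5.44 FPKM and 5 in control at 12.3 ± 0.942 FPKM, where BCL2L11, at 16.1 FPKM, stood above it. With exosomes BCL2L11 had 18.4 FPKM. Next in both groups came BAD with 15.6 FPKM with exosomes and 11.1 FPKM in control, BAK1 with 13.2 FPKM with exosomes and 10.4 FPKM in control, and BID with 8.80 FPKM with exosomes and 6.76 FPKM in control. BBC3 had 1.66 FPKM with exosomes and 1.11 FPKM in control, and BCL2 was last at 0.247 ± 0.0457 FPKM with exosomes and 0.408 ± 0.0546 FPKM in control. Neighbours whose library ranges overlapped were BCL2L1 and BAX, BCL2L11 and BAD, and BAD and BAK1 with exosomes, and BAX and BAD, BAD and BAK1, and BBC3 and BCL2 in control. BCL2 lay above 2.29% of tested genes with exosomes and above 5.21% in control, whereas MCL1 lay above 96.7% with exosomes and above 97.3% in control. The FPKM of BCL2 imply a length of 11.7 kb, against 7461 bases for its longest annotated transcript. Per kilobase of that transcript BCL2 had 0.389 CPM with exosomes and 0.642 CPM in control, and it still ranked 10.

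**Figure D4:**
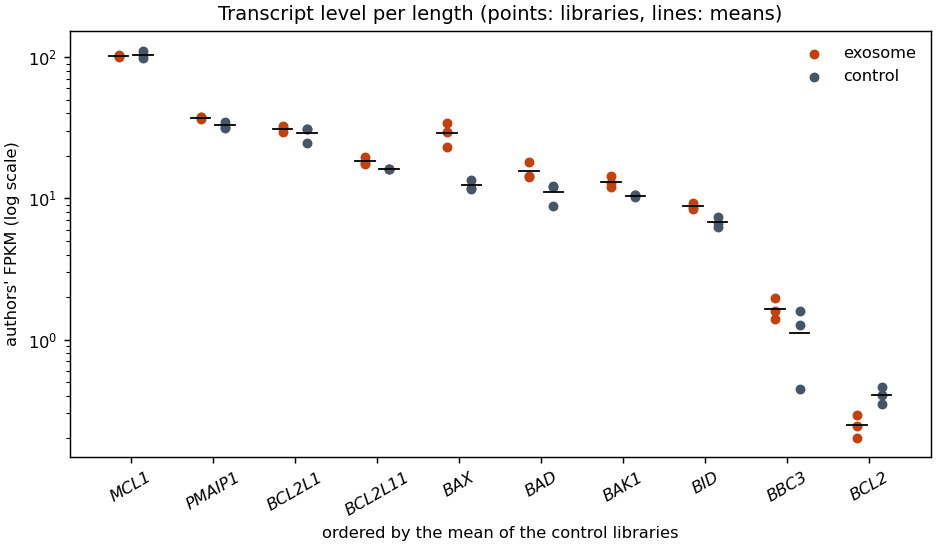
The authors' FPKM of each gene on a log scale, exosome left and control right, ordered by the control mean. Points are libraries and lines are means. MCL1 stands near 100 FPKM and BCL2 below 0.5 FPKM in both groups, and BAX and BCL2L11 change places between the groups.

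Summed over the pore formers, BAX and BAK1 had 42.0 ± 6.63 FPKM with exosomes and 22.8 ± 1.07 FPKM in control, and the groups did not overlap. The antiapoptotic genes BCL2, BCL2L1 and MCL1 together had 133 ± 0.369 FPKM with exosomes and 134 ± 3.57 FPKM in control. MCL1 made up 76.4% of that sum with exosomes and 78.0% in control, and BCL2 was its smallest part. Both sums follow library totals, without TMM scaling or the GC and length correction. Scaling by library totals moved the median log2 fold change of all genes by 0.08 to the exosome side. The near-equal antiapoptotic sums thus do not show that these transcripts were unchanged. With TMM scaling the log2 fold changes were 1.14 for BAX, 0.25 for BAK1, -0.80 for BCL2, 0.03 for BCL2L1 and -0.11 for MCL1. In the corrected fit the log2 fold changes were 0.67 for BAX and -0.15 for BAK1. They were -0.58 for BCL2, -0.30 for BCL2L1 and -0.01 for MCL1. The antiapoptotic gene BCL2L2, described below, is not part of the second sum.

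Ratios between members within a library were compared for 9 pairs. BAX over BCL2, a ratio often quoted for sensitivity to apoptosis, was 138, 145 and 78.8 in FPKM with exosomes and 25.7, 38.0 and 28.7 in control. Every exosome library lay above every control library, with library 3 the lowest of the exosome group. The ratio was 3.84-fold higher with exosomes, and 2.38-fold when corrected. Its absolute value rests on the length behind the FPKM of BCL2 given above, while the fold does not depend on that length. BAX over BCL2L1 was 1.05, 0.932 and 0.779 with exosomes and 0.384, 0.434 and 0.472 in control, a 2.14-fold difference. BAX over MCL1 was 0.338, 0.289 and 0.224 with exosomes and 0.121, 0.130 and 0.105 in control, a 2.36-fold difference. All 3 BAX ratios kept their direction in the corrected fit and without any 1 library.

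Of the other pairs, PMAIP1 over MCL1 was 0.362, 0.369 and 0.361 with exosomes and 0.328, 0.307 and 0.312 in control, 1.15-fold higher and 1.18-fold when corrected. BAK1 over MCL1 was 1.28-fold higher with exosomes, but its corrected log2 difference was -0.14. BCL2L11 over BCL2L1, BBC3 over MCL1 and BCL2L1 over MCL1 overlapped between groups. Of these, BCL2L11 over BCL2L1 was 1.05-fold higher with exosomes (exact permutation p = 0.5), and when corrected it was 1.48-fold higher with groups that did not overlap. In all, the groups did not overlap in 6 of the 9 pairs, and in 7 when corrected. BAK1 over MCL1 counts in both, with the exosome libraries above control before correction and below control after it. The pairs share genes, BAX and MCL1 above all, so they are not separate results. For each of the 6 the two-sided exact permutation p was 0.1, the smallest possible with 3 against 3 libraries, and 0.15 when adjusted over the 9 pairs, so no pair could pass 0.05.

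**Figure D5:**
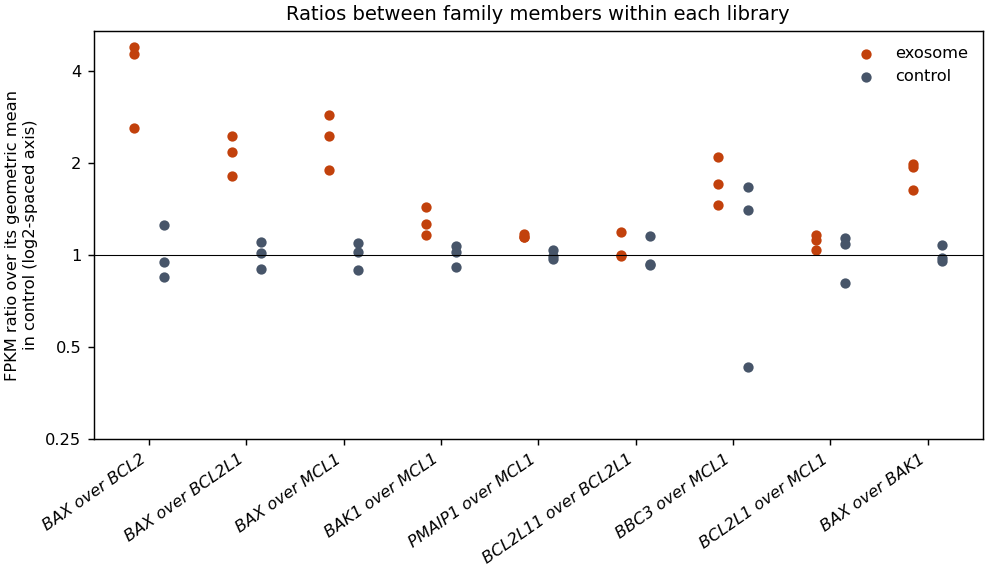
FPKM ratio of each pair over its geometric mean in the control libraries, on a log2-spaced axis, exosome left and control right. Points are libraries. The exosome libraries lie above control in 6 of the 9 pairs, all 4 with BAX among them, and the groups overlap for BCL2L11 over BCL2L1, BBC3 over MCL1 and BCL2L1 over MCL1.

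Other genes of the pathway were taken from 8 lists, with 76 tested genes. Of these 21 rose and 25 fell, which is 60.5% called against 51.7% of all genes. In the corrected fit 10 rose and 12 fell, which is 28.9% called against 35.4% of all genes, so the share lay above that of all genes in one fit and below it in the other. The 2 fits called 15 genes in the same direction. For the lists below, the shares over all tested genes were 25.6% higher and 26.1% lower. When corrected, these shares were 18.2% and 17.3%. Of the genes named below, APAF1, XIAP, BIRC6, TNFRSF1A, FAS, HUWE1, AKT1, YWHAB and MDM2 did not pass in the corrected fit. Of 9 other BCL2 family and BH3-motif genes, 3 rose and 1 fell (median 0.10). When corrected, 2 rose and 1 fell (median 0.05). BCL2L12, which encodes a divergent family protein, averaged 24.7 CPM with exosomes and 12.4 CPM in control (log2 fold change 0.92, edgeR adjusted p = 2.81e-05, corrected 0.50). BCL2L2, which encodes the antiapoptotic BCL-w, averaged 31.0 CPM with exosomes and 18.0 CPM in control (0.70, edgeR adjusted p = 1.06e-04, corrected 0.56). BCL2A1, BCL2L15 and BIK had too few reads to be tested.

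Of 9 caspase and apoptosome genes, 1 rose and 3 fell (median -0.10), and 2 rose and 1 fell when corrected (median -0.09). CASP8, which encodes the initiator that cuts BID, averaged 61.3 CPM with exosomes and 45.5 CPM in control (log2 fold change 0.35, edgeR adjusted p = 0.00283, corrected 0.50). CASP10, which encodes another initiator caspase, fell by 0.48 (corrected -0.31), and APAF1, the apoptosome scaffold, fell by 0.40 (corrected -0.09, edgeR adjusted p = 0.555), a call that ended without control library 3 (log2 fold change -0.27, edgeR adjusted p = 0.0601). CYCS, which encodes cytochrome c, had a log2 fold change of 0.12 (edgeR adjusted p = 0.175) and rose in the corrected fit, by 0.35.

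Of 8 inhibitor of apoptosis genes and their mitochondrial antagonists, 3 rose and 3 fell (median -0.22), and in the corrected fit edgeR called 0 of the 8 (1, BIRC6, at an unadjusted p under 0.05). XIAP, which blocks caspases directly, averaged 106 CPM with exosomes and 143 CPM in control (log2 fold change -0.50, corrected -0.08). BIRC6 fell by 0.61 (corrected -0.15). Of 12 death receptor genes, ligands and adaptors, 5 rose and 1 fell (median 0.23). When corrected, 3 rose and 1 fell (median 0.04). The adaptor gene TRAF2 rose by 0.76 (corrected 0.31) and TNFRSF1A, a TNF receptor gene, by 0.45 (corrected 0.08), and FAS fell by 0.46 (corrected -0.28, edgeR adjusted p = 0.0681).

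Of 9 genes of outer-membrane channels and mitochondrial fusion and fission, 2 rose and 5 fell (median -0.28). When corrected, 1 rose and 2 fell (median -0.03). VDAC2, an outer-membrane channel that binds BAK, averaged 47.5 CPM with exosomes and 57.1 CPM in control (log2 fold change -0.35, edgeR adjusted p = 0.00307, corrected -0.43). The fission gene FIS1 rose by 0.71 (corrected 0.23), and DNM1L, which encodes the fission GTPase, fell by 0.46 (corrected -0.20). Of 8 genes for ubiquitin ligases and deubiquitinases of MCL1 and BH3-only proteins, 6 fell and 2 did not pass the test (median -0.28), beside 26.1% lower among all genes. USP9X, a deubiquitinase of MCL1, averaged 475 CPM with exosomes and 706 CPM in control (log2 fold change -0.65, edgeR adjusted p = 3.18e-06), and HUWE1, a ligase of MCL1, fell by 0.29. In the corrected fit 1 of the 8 was called, USP9X at -0.17 (edgeR adjusted p = 0.0239).

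Of 11 genes for kinases and 14-3-3 proteins that act on BAD or BIM, 5 rose and 3 fell (median -0.03). When corrected, 2 rose and 3 fell (median 0.0009). PIM3, a kinase that phosphorylates BAD, averaged 112 CPM with exosomes and 46.8 CPM in control (log2 fold change 1.17, edgeR adjusted p = 5.54e-09, corrected 0.58). AKT1 rose by 0.33 (corrected 0.12). The 14-3-3 genes YWHAZ, YWHAB and YWHAQ fell by 0.49, 0.38 and 0.33 (corrected -0.19, -0.13 and -0.27), and YWHAE had too few reads to be tested. Of 10 transcription regulators of BAX and BH3-only genes, 2 rose and 3 fell (median -0.21). When corrected, 0 rose and 3 fell (median -0.20). FOXO1, a regulator of BCL2L11, averaged 8.24 CPM with exosomes and 13.6 CPM in control (log2 fold change -0.80, edgeR adjusted p = 1.39e-04, corrected -0.65), and FOXO3 fell by 0.37 (corrected -0.25). MDM2, which encodes a ubiquitin ligase, fell by 0.42 and was at 0.05 when corrected.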

How the data were processed

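Per the labels' protocols, SK-MES-1 RNA was isolated with Trizol, and a NEBNext Ultra kit was used for the libraries. STAR and GRCh38 are named in the submitters' processing notes, while no source used here gives the counting program, its annotation or whether it used strand. The deposited table holds the authors' whole-number counts per gene, a normalised signal that the authors made by dividing counts by a size factor per library, the authors' FPKM, and their log2 fold changes and p-values. No source used here names the tool of the authors' test, but its values for the 10 genes were nearly those of DESeq2 here. For BAX both gave a log2 fold change of 1.1504, so they are not separate checks. Counts were used for all tests and FPKM for levels and ratios.

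Counts were fitted in R 4.3.3 by edgeR 4.0.16, with filterByExpr, TMM scaling and group as the term, over 12449 genes, at an adjusted p of 0.05. In the corrected fit, a loess curve (span 0.3) of each library on GC content and length of the longest GENCODE 29 transcript was removed as an offset. CPM use library totals without TMM factors, so a ratio of CPM means differs slightly from a fitted fold. Totals of 11346639 to 13334508 counts limit the precision of genes with few reads. Alternatives were DESeq2 1.42.0, limma-voom 3.58.1, other scalings and filters, a block on the replicate number and the omission of each library in turn. The uncorrected edgeR fit was tested on simulated counts, which held no GC or length trend. Table positions count from 0 (all 15490 genes compared start 1 below GENCODE), and positions are given here from 1. Promoter sequences are from RefSeq (GRCh38.p14).

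The genes, lists and pairs were chosen with earlier results of these data known. Named genes are all members of the family and, of each list, up to 5 with the smallest adjusted p. The pair BAX and BAK1 was added after values had been seen. Some genes that the rule takes from the lists, and 1 motif searched, are not reported here.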

Additional observations from a re-analysis of the deposited data

How the results depend on the processing

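BAX rose in all 16 alternatives to the fit (log2 fold change 0.67 to 1.27, highest adjusted p 3.20e-05), and BCL2 fell in all 16 (-0.96 to -0.57, highest adjusted p 0.0491). In 7 alternatives to the corrected fit, the BAX call held in all 7. The BCL2 call ended in 4 of them and held in 3 (log2 fold change -0.70 to -0.45, highest adjusted p 0.199). Over the 10 genes, 131 of 160 values stayed on their side of the threshold with the same direction.

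Scaling by library totals called 5 genes higher in place of 3 and moved the share of higher calls over all genes to 60.4%, against 49.6%; it moved the median of all genes by 0.08. The GC and length offset called 2263 genes higher and 2148 lower, against 3190 and 3244; 2 genes of the family fell, and 10 pathway genes rose and 12 fell, against 21 and 25. It turned the direction of BAK1 (-0.15), BCL2L1 (-0.30), BAD (-0.22), BBC3 (-0.15), BNIP3L (0.065), TRADD (-0.18), FADD (-0.15), USP13 (0.0013), E2F1 (-0.0083) and MDM2 (0.047), and of the log2 ratios BAK1 over MCL1 (-0.14), BBC3 over MCL1 (-0.0037) and BCL2L1 over MCL1 (-0.29). The cause was not tested.

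The replicate numbers of the labels did not count as pairs, since deviations of same-numbered libraries correlated at 0.07, 0.10 and 0.21, although 6 of 6 libraries correlated best with their own number. With the replicate block 3444 genes were higher and 3525 lower, and BAK1 passed (adjusted p 0.0392). With the block and the offset together, 2 genes of the family fell, 11 pathway genes rose and 14 fell, and the turned values were -0.15 for BAK1, -0.30 for BCL2L1, -0.23 for BAD, -0.12 for BBC3, 0.066 for BNIP3L, -0.18 for TRADD, -0.14 for FADD, 0.0026 for USP13, -0.0073 for E2F1 and 0.047 for MDM2. Paired exact permutation tests of the ratios had a smallest p of 0.25.

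Leaving out each library gave 1 to 4 genes of the family higher, with 1 (BAX) without exosome library 1. The range was -0.064 to 0.096 for BCL2L1, -0.044 to 0.034 for corrected MCL1, -0.42 to 0.13 for corrected BBC3, -0.011 to 0.18 for the log2 ratio BCL2L11 over BCL2L1 and -0.0060 to 0.24 for BCL2L1 over MCL1. Without library 3 of both groups, an alternative chosen after seeing the data like the leave-one-out values of the corrected fit, BCL2L1 was at -0.05 and BAK1 passed (adjusted p 0.025). The reads behind BCL2 and BBC3, 12 to 69 per library, limit what can be said of those genes.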
